A study of Mus musculus with 27 samples.

Results

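The chemokines and chemokine receptors described here are the 47 genes named in the probe table whose symbol begins with Ccl, Ccr, Cxcl or Cxcr followed directly by a digit, of 20239 probe sets with a single gene symbol. Their RNA was measured in right lungs from female mice aged 11 weeks, of 9 inbred strains, with 3 mice and 3 Mouse Gene 1.0 ST arrays per strain, 27 arrays in all. The mice were untreated as far as the labels say, and the lungs are labelled as normal. Each strain also carries a label for spontaneous pulmonary adenoma, a benign lung tumour: A/J, C57BL/6J and DBA/2J are labelled increased in severity and in frequency, C57L/J, C3H/HeJ, 129S1/SvlmJ and BALB/cJ increased in severity but decreased in frequency, and KK/HlJ and MRL/MpJ decreased in both. These labels belong to the strain and not to the individual mouse.

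Chemokines are small secreted proteins that draw leukocytes along a gradient. They are named by the spacing of their first cysteines, CC where these are adjacent and CXC where 1 residue lies between, and they act on receptors with 7 membrane-spanning helices that couple to inhibitory G proteins. Inflammatory chemokines are made on demand and bring in neutrophils, monocytes, T cells and natural killer (NK) cells, while homeostatic ones, such as Cxcl12, Cxcl13 and Cxcl14, are made at rest and place cells within tissues. In the lung they come from epithelium, macrophages, dendritic cells and lymphocytes.

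Values are log2 signal, so that a log2 difference of 1 is a doubling. Signals of different genes are not set against each other. As a floor for what the array gives without a transcript, 7 Y-linked genes were read in these female lungs; their strain means lay between 2.50 and 5.25. Of the 47 members, 19 stayed within that range in all 9 strains, 28 were above it in at least 1 strain and 21 were above it in every strain. The upper end was set by Sry alone, and without it the Y-linked genes reached 3.56, which every member exceeded in at least 1 strain. One lung stood apart: C3H/HeJ replicate 2 had a mean of 9.05 over 12 skeletal muscle genes, against 4.97 to 5.38 in the other 26 mice, and 8.73 over 10 adipocyte genes, against 5.85 to 7.78. The calls and marker counts of C3H/HeJ are therefore given with and without it. The annotation places another coding gene over 9 members (Ccl27a, Ccl3, Ccl4, Ccr10, Cxcl10, Cxcl11, Cxcl16, Cxcr5 and Cxcr6), and their signals are uncertain to that extent.

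The moderated F test in limma compared the 9 strain means of each gene, and 22 of 47 members passed it at an adjusted p under 0.05, which is 46.8%; 28.9% of all named genes passed. Among genes above the Y-linked range in at least 1 strain, 19 of 28 members passed, which is 67.9%, beside 36.8% of all such genes. That filter used the highest of the strain means that the F test compares, so these shares are no independent support. The median range of the 9 strain means was 0.53 over the members and 0.34 over all genes, and the median within-strain SD of the members was 0.15. By role, 7 of 8 homeostatic CXC chemokines and receptors passed, and 3 of 7 genes of the neutrophil-attracting CXC group. Of the interferon-induced CXC chemokines and their receptor 3 of 4 passed, namely Cxcl9, Cxcl10 and the receptor Cxcr3. So did 6 of 15 inflammatory CC chemokines and 3 of 10 CC receptors. Of the homeostatic CC chemokines Ccl20, Ccl25 and Ccl27a 0 of 3 passed, and Ccl20 alone had an unadjusted F test p under 0.05, at 0.0429. Between pairs of strains, 45 of 1692 member-by-pair tests were called at an adjusted p under 0.05 and a log2 difference of at least 1, or 2.66%, beside 0.655% over all genes. These calls came from 9 members, Cxcr1 (18 pairs), Cxcl14 (10), Ccl5 (4), Ccl22 and Cxcr2 (3 each), Ccl17, Ccl3 and Cxcl13 (2 each) and Ccr3 (1); of all genes, 4.27% had such a pair. In bulk lung RNA, more cells of a type and more RNA per cell cannot be told apart.

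**Figure D1:**
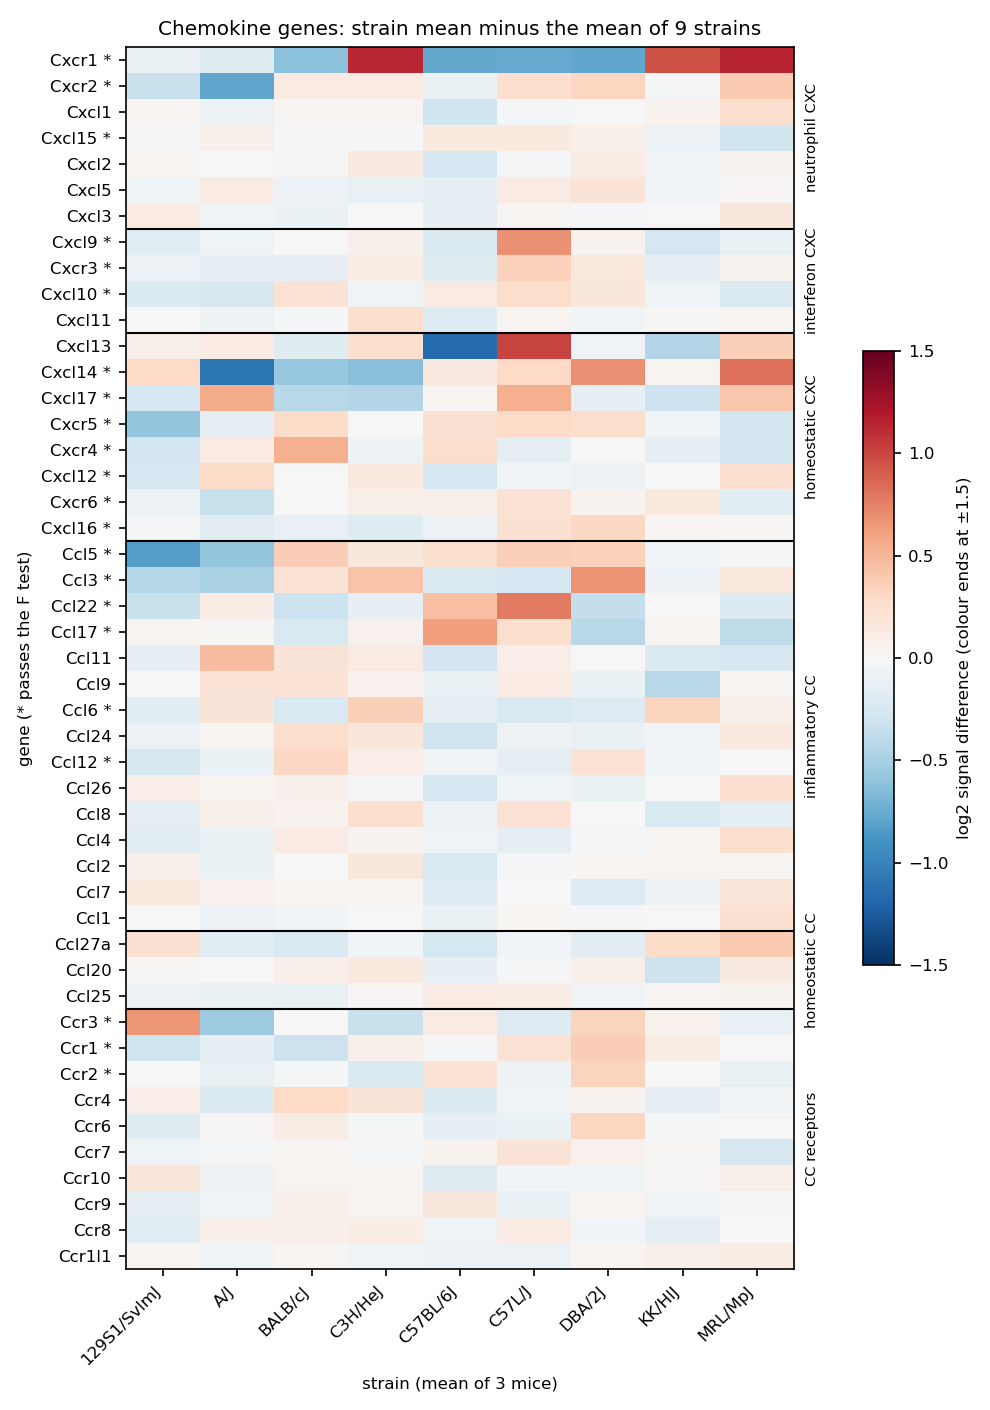
Strain means of the 47 members (rows, grouped by role) in the 9 strains (columns), as the log2 difference from the mean of the 9 strains; red is higher, blue is lower, and an asterisk marks the 22 members that pass the F test. Cxcr1 is red in C3H/HeJ, KK/HlJ and MRL/MpJ and Cxcl14 is blue in A/J, BALB/cJ and C3H/HeJ, while most CC receptors stay near white.

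Set against the mean of the other 8 strains, 56 of 423 member-by-strain tests were called, 13.2% beside 7.54% over all genes, and they fell on 26 members. In 129S1/SvlmJ 1 member was higher (3.54% of all genes were) and 5 were lower (6.43%): Ccr3 stood 0.74 above the other strains, and Ccl5 (-0.92), Cxcr5 (-0.66), Ccl3 (-0.49), Cxcr4 (-0.32) and Cxcl17 (-0.29) below. A/J had 2 higher members (1.96% of genes), Cxcl17 (0.62) and Ccl11 (0.52), and 6 lower ones (3.75%), Cxcl14 (-1.23), Cxcr2 (-0.87), Ccl5 (-0.66), Ccr3 (-0.61), Ccl3 (-0.53) and Cxcr6 (-0.37). BALB/cJ had 2 higher (2.48%), Cxcr4 (0.60) and Ccl12 (0.34), and 3 lower (3.01%), Cxcr1 (-0.70), Cxcl14 (-0.64) and Cxcl17 (-0.47). C3H/HeJ had 2 higher (4.18%), Cxcr1 (1.27) and Ccl6 (0.40), and 3 lower (3.08%), Cxcl14 (-0.70), Cxcl17 (-0.49) and Cxcl16 (-0.21). C57BL/6J had 3 higher (4.06%), Ccl17 (0.70), Ccl22 (0.51) and Cxcr4 (0.30), and 4 lower (4.11%), Cxcl13 (-1.30), Cxcr1 (-0.87), Cxcl1 (-0.33) and Ccl26 (-0.29).

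C57L/J had the most members above the other strains together with MRL/MpJ, 5 each. In C57L/J these were Ccl22 (0.88), Cxcl9 (0.78), Cxcl17 (0.59), Cxcr3 (0.38) and Cxcl16 (0.25), beside 3.69% of all genes higher, and 1 member was lower, Cxcr1 (-0.86; 2.94% of genes lower). In MRL/MpJ they were Cxcr1 (1.28), Cxcl14 (0.93), Cxcl17 (0.47), Ccl26 (0.27) and Ccl1 (0.25), beside 6.83% of genes, and 3 members were lower, Ccl17 (-0.42), Cxcl15 (-0.34) and Cxcr4 (-0.32), beside 5.61%. DBA/2J had 4 higher (2.87%), Cxcl14 (0.77), Ccl3 (0.75), Ccr2 (0.38) and Cxcl16 (0.35), and 2 lower (1.94%), Cxcr1 (-0.87) and Ccl17 (-0.47). KK/HlJ had 2 higher (4.55%), Cxcr1 (1.07) and Ccl6 (0.38), and 3 lower (2.83%), Ccl9 (-0.47), Ccl20 (-0.35) and Cxcl17 (-0.35). Of the 56 calls, 28 were kept without every single array in turn and under every other setting that tested the gene. They are the 7 of Cxcr1, the 5 of Cxcl14, those of Cxcl17 in A/J, BALB/cJ, C3H/HeJ, C57L/J and MRL/MpJ, Ccl5 and Cxcr5 in 129S1/SvlmJ, Cxcr6 in A/J, Cxcr4 in BALB/cJ, Ccl17 in C57BL/6J, Ccl22, Cxcl9 and Cxcr3 in C57L/J, Ccl3 and Cxcl16 in DBA/2J, and Cxcl15 in MRL/MpJ. The other 28 lost the call without at least 1 array. Some of them also depended on scaling or weights: quantile normalization kept 50 of the 56 calls, median centring 51 and array weights 50.

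**Figure D2:**
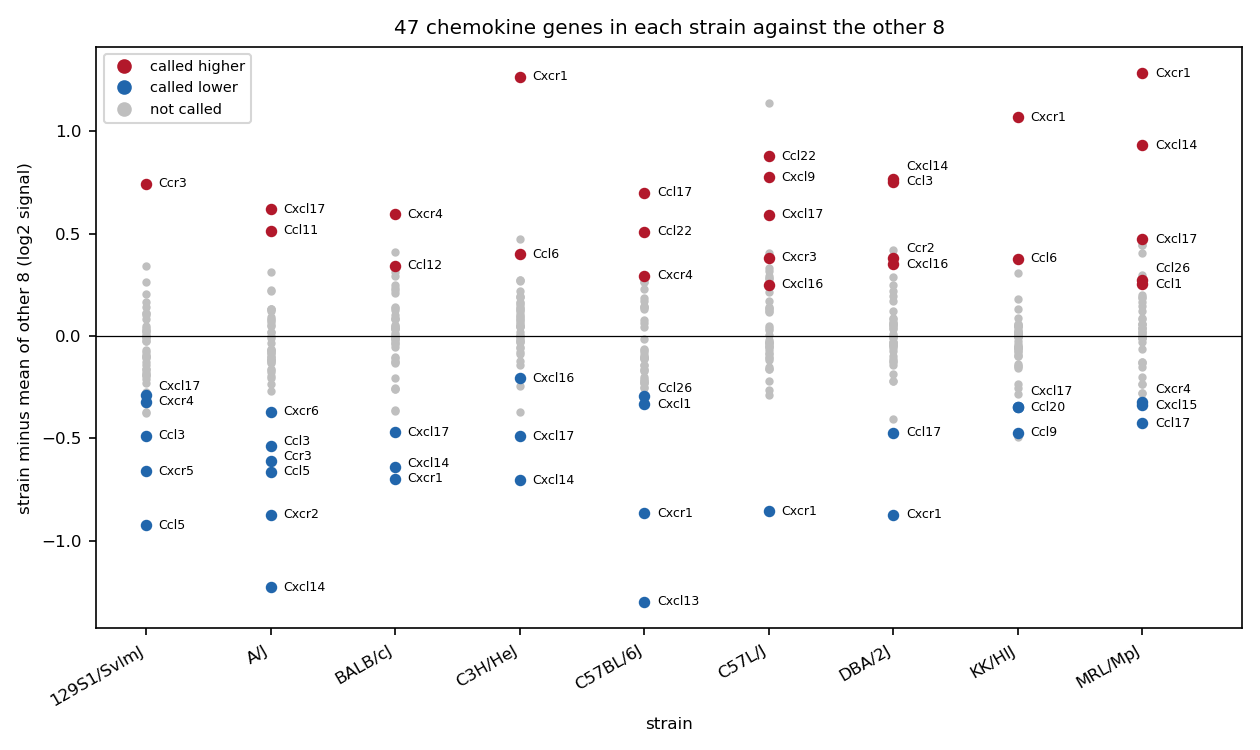
Difference of each strain from the mean of the other 8 (vertical axis, log2 signal) for the 47 members in each strain (horizontal axis); red points were called higher, blue points lower, and grey points were not called. Cxcr1 stands at 1.28 in MRL/MpJ, 1.27 in C3H/HeJ and 1.07 in KK/HlJ, and Cxcl14 at -1.23 in A/J; the grey point high in C57L/J is Cxcl13.

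Cxcr1 and Cxcr2 are receptors for CXC chemokines found on neutrophils. Cxcr1 had the smallest F test p of the members (adjusted p = 2.28e-10). Its log2 signal was 7.70, 7.62 and 7.85 in MRL/MpJ mice, 7.62, 7.87 and 7.62 in C3H/HeJ mice and 7.61, 7.33 and 7.66 in KK/HlJ mice, against a lowest value of 5.52, a median of 6.09 and a highest of 6.75 in the other 18 mice. No mouse of these 3 strains overlapped any other mouse. All 18 pairs that join 1 of the 3 with 1 of the other 6 were called, and none within either group. MRL/MpJ exceeded DBA/2J, the lowest strain, by 1.92 ± 0.17 (SE, adjusted p = 2.94e-08), or 3.77-fold, while MRL/MpJ and C3H/HeJ, next to each other in the order, differed by 0.01 (adjusted p = 0.981). Without C3H/HeJ replicate 2, C3H/HeJ stood 1.18 above the other strains (adjusted p = 2.91e-05).

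Cxcr2, the neighbouring gene on chromosome 1, did not follow that order. It was 4.90, 5.62 and 5.57 in A/J mice, against a lowest value of 5.41, a median of 6.21 and a highest of 6.98 in the other 24 mice, so A/J overlapped the others. A/J stood 0.87 below the other strains (difference -0.87, SE 0.20, adjusted p = 0.00914), and lay below MRL/MpJ, DBA/2J and C57L/J by at least 1. Both the F test of Cxcr2 (adjusted p = 0.0280) and its A/J call were lost without A/J replicate 1, at adjusted p of 0.116 and 0.159, with a difference of -0.64. Its strain means in MRL/MpJ, C3H/HeJ and KK/HlJ were 6.54, 6.26 and 6.12. Of 13 neutrophil markers, 5 were lower and 0 higher in A/J and the same counts held in 129S1/SvlmJ, while 4 were higher and 1 lower in MRL/MpJ, 2 higher and 0 lower in C3H/HeJ (0 and 0 without replicate 2), and 0 higher and 1 lower in KK/HlJ. The mean of the 13 markers was 6.53 in MRL/MpJ, 6.32 in C3H/HeJ (6.28 without replicate 2) and 6.17 in KK/HlJ, beside 5.85 to 6.51 in the other 6 strains, with S100a8, a neutrophil calcium-binding protein, at 7.21 in MRL/MpJ, 6.92 in C3H/HeJ and 6.19 in KK/HlJ. The part of neutrophil markers in the values of either receptor was not tested.

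**Figure D3:**
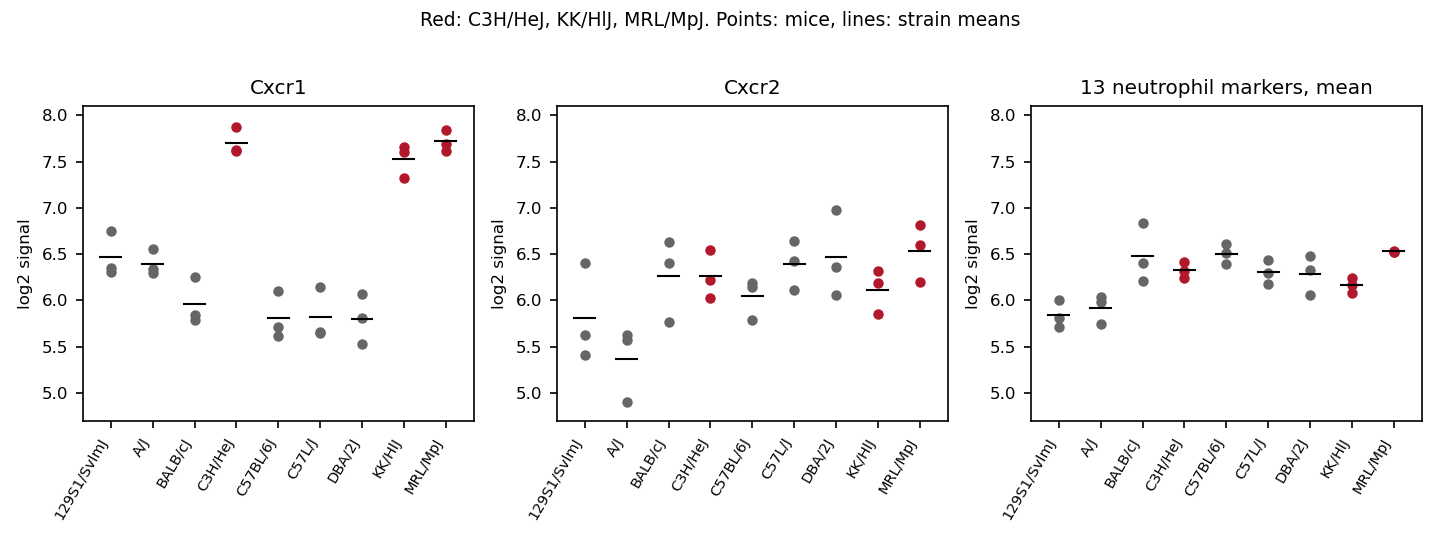
Log2 signal of Cxcr1 (left), of Cxcr2 (middle) and the mean of 13 neutrophil markers (right) in each of 27 mice (points) by strain, with strain means as lines; C3H/HeJ, KK/HlJ and MRL/MpJ are red. The red strains lie at 7.33 or above for Cxcr1, apart from all others, but within the range of the others for Cxcr2.

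Of the ligands in the group, Cxcl15, also called lungkine, is a mouse chemokine made by lung epithelium. It was 11.95, 12.28 and 12.08 in MRL/MpJ mice, against a lowest value of 12.19, a median of 12.44 and a highest of 12.66 in the other 24, so 1 MRL/MpJ mouse lay among the others. MRL/MpJ stood below the other strains by a difference of -0.34 ± 0.06 (SE, adjusted p = 9.52e-04), and 4 of 9 alveolar type II cell markers were lower and 1 higher there. The part of those cells was not tested. Cxcl1, a neutrophil attractant, was lower in C57BL/6J (5.69 ± 0.13, SD, n = 3, against 6.02 over the other 8 strains, adjusted p = 0.0418), and that call was lost without any 1 of 10 arrays (adjusted p up to 0.318). The call was also lost under quantile normalization (adjusted p = 0.0614) and median centring (0.0503). Cxcl2, Cxcl3 and Cxcl5, also neutrophil attractants, stayed in the Y-linked range in every strain; their strain means ran from 3.42 to 3.82, 3.63 to 3.95 and 3.62 to 3.96.

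Among the homeostatic CXC genes, Cxcl14, a chemokine made by epithelium and fibroblasts at rest, had the widest spread of those that passed the F test (adjusted p = 5.70e-09). It was 7.33, 7.11 and 7.30 in A/J mice, 7.59, 8.01 and 7.70 in BALB/cJ mice and 8.004, 7.46 and 7.67 in C3H/HeJ mice, against a lowest value of 8.24, a median of 8.61 and a highest of 9.36 in the other 18 mice. These 3 strains lay below every other mouse. At the other end, MRL/MpJ mice had 9.36, 9.24 and 8.89 and DBA/2J mice 8.97, 9.01 and 9.07, above every mouse of the other 7 strains, whose highest was 8.87. MRL/MpJ exceeded A/J by 1.92 ± 0.15 (SE, adjusted p = 8.60e-09), or 3.78-fold, and KK/HlJ exceeded BALB/cJ, the next strain down the order, by 0.61 (adjusted p = 0.0125), whereas DBA/2J and 129S1/SvlmJ, also neighbours, had a difference of 0.38 that did not pass (adjusted p = 0.127). Without C3H/HeJ replicate 2 the C3H/HeJ difference was -0.58 (adjusted p = 0.0110).

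Cxcl17, a mucosal chemokine of airway epithelium, was high in 3 strains (F test adjusted p = 1.08e-07). It was 8.19, 8.37 and 8.09 in A/J mice, 8.35, 8.17 and 8.06 in C57L/J mice and 8.12, 7.93 and 8.21 in MRL/MpJ mice, against a lowest value of 7.07, a median of 7.38 and a highest of 7.86 in the other 18, with no overlap. The A/J mean exceeded the C3H/HeJ mean by 0.99 ± 0.11 (SE, adjusted p = 4.40e-06), just under the minimum of 1 for a pair call. Cxcl17 was called in 7 of 9 strains against the rest. Its lower calls in 129S1/SvlmJ and KK/HlJ were lost without some arrays, any of the 3 in 129S1/SvlmJ (adjusted p up to 0.192) and replicate 1 or 3 in KK/HlJ (up to 0.101). In C3H/HeJ the difference was -0.55 without replicate 2 (adjusted p = 0.00218).

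Cxcr4 and Cxcl12 are a receptor and its ligand that retain leukocytes in tissue. Cxcr4 was 10.41, 10.34 and 10.37 in BALB/cJ mice, against a lowest value of 9.38, a median of 9.77 and a highest of 10.11 in the other 24, and every BALB/cJ mouse was above them. BALB/cJ exceeded MRL/MpJ, the lowest strain, by 0.82 ± 0.12 (SE, adjusted p = 5.62e-05). Cxcr4 was also called higher in C57BL/6J (lost without any of its 3 arrays, adjusted p up to 0.158), lower in 129S1/SvlmJ (lost without replicate 1 or 2, up to 0.246) and lower in MRL/MpJ (lost without replicate 1 or 3, up to 0.119). Quantile normalization also lost the C57BL/6J call (adjusted p = 0.0588), and median centring the 129S1/SvlmJ call (0.0648). Cxcl12 passed the F test (adjusted p = 0.0165) with strain means from 8.54 in C57BL/6J to 9.09 in A/J, and no single strain was called.

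Cxcl13 and its receptor Cxcr5 bring B cells into follicles. Cxcl13 had the widest range of strain means of all members, 2.17, yet it missed the F test (adjusted p = 0.0694). Mice of a strain differed: C57L/J mice had 7.85, 7.17 and 9.06, C3H/HeJ mice 6.31, 8.68 and 6.77 and 129S1/SvlmJ mice 6.98, 6.18 and 8.15. C57BL/6J mice, at 6.11, 5.80 and 5.67, lay below all other 24, whose lowest was 6.18 and median 7.05. C57BL/6J was called lower than C57L/J (difference -2.17 ± 0.49, SE, adjusted p = 0.00706) and lower than MRL/MpJ (-1.52 ± 0.49, adjusted p = 0.0384), and its call against the other 8 strains was lost without any of its 3 arrays (adjusted p up to 0.149). Without C3H/HeJ replicate 2 Cxcl13 passed the F test (adjusted p = 0.0125). In the highest mouse of C57L/J, C3H/HeJ and 129S1/SvlmJ the mean of 12 B cell markers was 7.12, 6.76 and 5.96, beside 6.00 to 7.27 in the other 24 mice, and the mean of 10 adipocyte genes was 7.78, 8.73 and 7.32, beside 5.85 to 7.31. The part of either in Cxcl13 was not tested. Cxcr5 was 4.19, 4.04 and 4.19 in 129S1/SvlmJ mice, against a lowest of 4.38, a median of 4.74 and a highest of 5.44 in the other 24 (difference -0.66 ± 0.12, SE, adjusted p = 0.00105), with every strain mean in the Y-linked range. In 129S1/SvlmJ 7 of 12 B cell markers were lower and 0 higher, Ms4a1 (CD20) at 6.46 among strain means up to 7.55; the part of B cells in Cxcr5 was not tested.

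Cxcl16, a membrane-bound chemokine, and its receptor Cxcr6, found on activated T cells, both passed the F test. Cxcl16 was 8.22, 8.06 and 8.14 in DBA/2J mice and 8.13, 7.96 and 8.06 in C57L/J mice, against a lowest value of 7.46, a median of 7.75 and a highest of 7.94 in the other 21, without overlap. The DBA/2J mean stood 0.35 ± 0.06 (SE, adjusted p = 9.51e-04) above the other strains; the C57L/J call was lost without its replicate 1 or 3 (adjusted p up to 0.167), and the lower call in C3H/HeJ without any 1 of 21 arrays, reaching -0.12 (adjusted p = 0.469) without C3H/HeJ replicate 2. Cxcr6 was 5.03, 5.03 and 4.95 in A/J mice, below all other 24, whose lowest was 5.07 and median 5.33 (difference -0.37 ± 0.07, SE, adjusted p = 0.00249). The A/J mean of Cxcr6, 5.01, was among 3 strain means in the Y-linked range. Of 12 T cell markers 2 passed the F test, or 16.7%, beside 28.9% of all named genes.

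Interferon gamma induces Cxcl9, Cxcl10 and Cxcl11, which attract T and NK cells through Cxcr3. Cxcl9 was 6.02, 5.44 and 5.82 in C57L/J mice, against a lowest value of 4.59, a median of 4.99 and a highest of 5.36 in the other 24 mice, which C57L/J did not overlap. The difference was 0.78 ± 0.12 (SE, adjusted p = 8.33e-05), and C57L/J was the single strain whose mean was above the Y-linked range. Cxcr3 was also highest in C57L/J, at 6.71, 6.86 and 6.77, against 6.19 to 6.80 with a median of 6.42 in the other mice (difference 0.38 ± 0.07, adjusted p = 0.00112); 1 DBA/2J mouse overlapped. Cxcl10 passed the F test (adjusted p = 0.0366) with strain means from 4.86 in A/J to 5.36 in C57L/J, 6 of them in the Y-linked range. That call was lost without any 1 of 10 arrays, with the adjusted p reaching 0.0683. Cxcl11 stayed within the Y-linked range in all strains, at 3.76 to 4.20.

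Ccl5 (RANTES) is made by T and NK cells and Ccl3 (MIP-1 alpha) by macrophages and NK cells; both act on Ccr1 and Ccl5 also on Ccr3. Ccl5 was 7.84, 7.87 and 7.07 in 129S1/SvlmJ mice and 7.92, 8.02 and 7.55 in A/J mice, against a lowest value of 7.93, a median of 8.60 and a highest of 9.04 in the other 21 mice. The 2 strains formed the low end, and a KK/HlJ mouse at 7.93 lay within the A/J range. The difference from the other strains was -0.92 ± 0.15 (SE, adjusted p = 2.21e-04) in 129S1/SvlmJ and -0.66 ± 0.15 (adjusted p = 0.00726) in A/J; the A/J call was lost without A/J replicate 3 (-0.52, adjusted p = 0.120). BALB/cJ exceeded 129S1/SvlmJ by 1.19 ± 0.20 (SE, adjusted p = 3.91e-04), while KK/HlJ and A/J, next to each other, differed by 0.54, which did not pass (adjusted p = 0.107).

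Ccl3 was 6.49, 6.70 and 6.82 in DBA/2J mice, 5.47, 5.38 and 5.73 in A/J mice and 5.48, 6.00 and 5.22 in 129S1/SvlmJ mice, with a lowest value of 5.23, a median of 6.01 and a highest of 6.64 in the other 18. DBA/2J exceeded A/J by 1.15 ± 0.20 (SE, adjusted p = 4.61e-04) and stood 0.75 above the other strains (adjusted p = 0.00214). The lower calls were lost without A/J replicate 1 or 2 (adjusted p up to 0.238) and without 129S1/SvlmJ replicate 1 or 3 (up to 0.335). Of 12 NK cell markers 9 were called lower in 129S1/SvlmJ and 6 in A/J, with 0 higher in either, and 9 of the 12 lay within the Y-linked range in each of these strains. Ncr1, an activating receptor of NK cells, had strain means of 4.76 in 129S1/SvlmJ and 4.82 in A/J, beside 5.22 to 6.32 in the others. The part of NK cells in Ccl5 or Ccl3 was not tested. Ccl4 (MIP-1 beta), whose gene overlaps Ccl3, stayed within the Y-linked range at 4.81 to 5.24 and no strain was called.

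**Figure D4:**
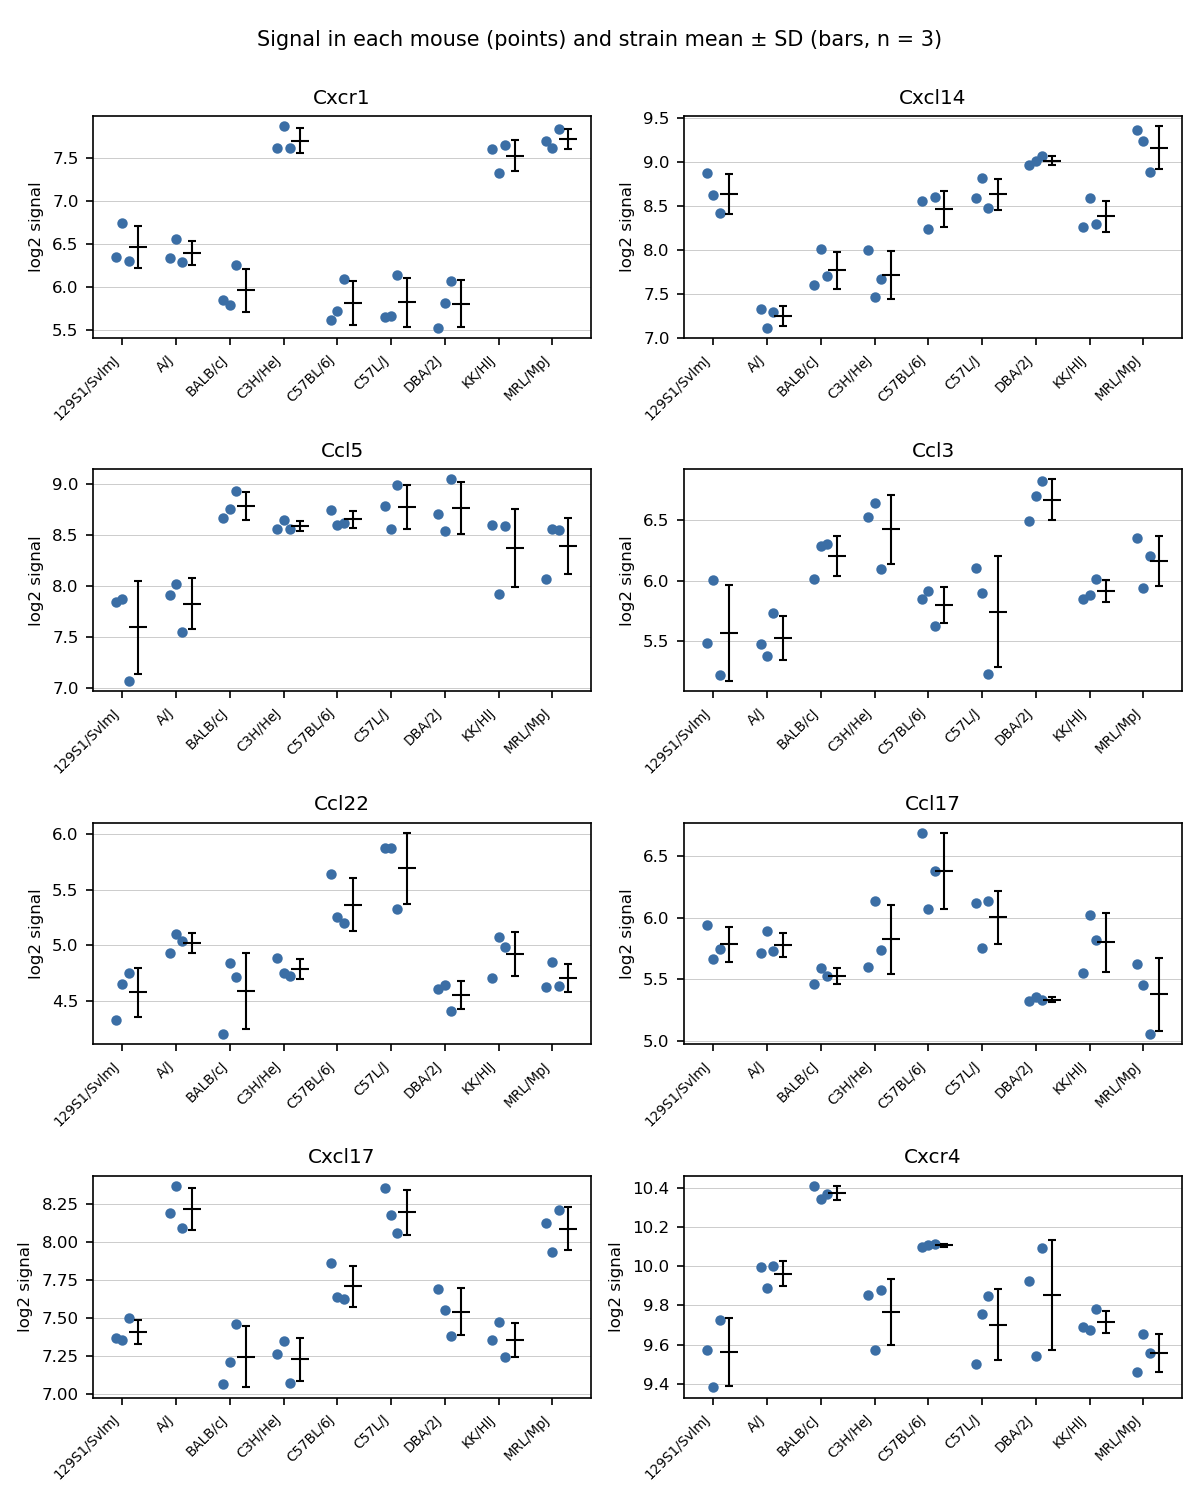
Log2 signal of Cxcr1, Cxcl14, Ccl5, Ccl3, Ccl22, Ccl17, Cxcl17 and Cxcr4 in each mouse (points) by strain, with strain mean ± SD beside them (n = 3 mice per strain). Cxcr1, Cxcl14 and Cxcl17 fall into separated levels of strains, and Ccl5 is low in 129S1/SvlmJ and A/J.

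Ccl17 and Ccl22 both bind Ccr4 on T cells, are made by dendritic cells, and lie on chromosome 8 with Cx3cl1 as the coding gene between them. Because both were called higher in C57BL/6J, their promoters are shown, as the 250 bases before and 50 after the start of each gene, in RefSeq's annotation of GRCm38.p6, on the plus strand at chr8:94810203-94810502 for Ccl17 and chr8:94745434-94745733 for Ccl22. Capitals mark matches of a STAT motif (TTC, any 4 bases, then GAA) and of an ETS motif (GAGGAA).
Ccl17: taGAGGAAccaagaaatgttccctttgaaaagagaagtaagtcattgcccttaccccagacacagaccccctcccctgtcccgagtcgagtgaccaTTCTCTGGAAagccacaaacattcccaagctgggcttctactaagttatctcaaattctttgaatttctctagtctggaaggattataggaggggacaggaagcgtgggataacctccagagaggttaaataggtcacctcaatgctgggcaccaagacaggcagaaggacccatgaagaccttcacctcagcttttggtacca
Ccl22: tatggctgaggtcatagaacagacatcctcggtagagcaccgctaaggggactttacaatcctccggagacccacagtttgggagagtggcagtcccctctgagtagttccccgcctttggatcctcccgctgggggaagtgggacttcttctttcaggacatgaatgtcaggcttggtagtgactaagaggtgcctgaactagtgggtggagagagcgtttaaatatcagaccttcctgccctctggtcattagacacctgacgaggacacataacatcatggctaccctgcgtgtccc
Motifs were searched on both strands, together with an NF-kappaB motif (GGG, any 2 bases, then TTTCC) and a TATA box (TATAAA), over 32817 promoters of the same length; none of the 4 motifs was found in the Ccl22 window. The STAT motif with 4 bases between TTC and GAA was present in 6.95% of all promoters. It was found in 1 of the 33 members with a promoter in the table, Ccl17, where it lies at position -154. STAT motifs with another spacing were not searched or marked. The ETS motif was present in 28.3% of promoters and 12 of 33 members, Ccl17 at -248 among them. The NF-kappaB motif was present in 1.63% of promoters and in 6 of 33 members (Ccl20, Ccl9, Ccr3, Cxcl1, Cxcl2 and Cxcl3), and TATAAA in 13.6% and 10 members. The percentages count single promoter windows, but a member was counted if any of its windows matched, so they are not directly comparable. A match is a run of letters and not a known site.

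Ccl22 was 5.88, 5.88 and 5.33 in C57L/J mice and 5.64, 5.26 and 5.20 in C57BL/6J mice, against a lowest value of 4.20, a median of 4.72 and a highest of 5.11 in the other 21, with no overlap. C57L/J exceeded DBA/2J by 1.14 ± 0.16 (SE, adjusted p = 6.11e-05); the DBA/2J mean, 4.55, and 6 others were in the Y-linked range. The C57BL/6J call was lost without C57BL/6J replicate 1 (0.37, adjusted p = 0.154). Ccl17 was 6.69, 6.07 and 6.38 in C57BL/6J mice, 5.32, 5.36 and 5.33 in DBA/2J mice and 5.63, 5.45 and 5.06 in MRL/MpJ mice, with 5.46 to 6.13 and a median of 5.74 in the other 18. C57BL/6J exceeded DBA/2J by 1.04 ± 0.16 (adjusted p = 1.18e-04), or 2.06-fold, and stood 0.70 above the other strains (adjusted p = 3.42e-04). The lower calls of Ccl17 were lost without any DBA/2J array (adjusted p up to 0.123) and without MRL/MpJ replicate 3 (-0.26, 0.268). C57L/J, where Ccl22 was highest, had a Ccl17 mean of 6.00 that was not called. Of 9 dendritic cell markers other than Ccl22 and Ccr7, 5 were higher and 1 lower in C57L/J, and 1 higher and 3 lower in C57BL/6J. In C3H/HeJ 5 were higher and 0 lower, and in DBA/2J 3 and 0, with Ccl22 means of 4.79 and 4.55 that were not called. Over all 11 dendritic cell markers C3H/HeJ had 5 higher, and 2 without replicate 2. In 129S1/SvlmJ 0 of the 9 were higher and 6 lower, and in BALB/cJ 0 and 3, with Ccl22 means of 4.58 and 4.59. Clec9a, of conventional dendritic cells, was 6.96 in C57L/J and 5.89 in C57BL/6J. The part of dendritic cells was not tested. Cx3cl1, between the 2 genes, was 7.49 in C57BL/6J and 7.40 in C57L/J, beside 7.29 to 7.89 in the others, and was called in neither.

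Of the other CC chemokines, Ccl6 and Ccl9 are macrophage and myeloid products known in rodents. Ccl6 was 10.40, 10.59 and 10.53 in C3H/HeJ mice and 10.38, 10.47 and 10.60 in KK/HlJ mice, beside 9.51 to 10.50 and a median of 10.04 in the other 21, with overlap. The C3H/HeJ call (0.40 ± 0.10, SE, adjusted p = 0.0204) was lost without replicate 2 (0.36, adjusted p = 0.137) or 3, and the KK/HlJ call without any of its arrays (up to 0.151). Alveolar macrophage markers were higher for 6 of 11 in C3H/HeJ and 5 of 11 in KK/HlJ, and lower for 1 and 0. The C3H/HeJ counts were the same without replicate 2. Such markers were also higher in A/J, where Ccl6 averaged 10.34 and was not called. There Krt79 (1.21), Marco (1.00), Atp6v0d2 (0.34), Car4 (0.29) and Abcg1 (0.23) were higher, as was Siglecf (0.36), and Chil3 (-0.52) was lower. The part of these cells in Ccl6 was not tested. Ccl9 was 6.45, 6.37 and 6.40 in KK/HlJ mice, below the other 24, whose lowest was 6.54 and median 6.88; it missed the F test (adjusted p = 0.0573), and its strain call was lost without KK/HlJ replicate 2 or 3 (up to 0.0817).

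Ccl12, a monocyte attractant of rodents, was 4.39, 4.85 and 4.91 in BALB/cJ mice, beside 4.09 to 4.81 and a median of 4.37 in the others. Both its F test (adjusted p = 0.0319) and BALB/cJ call (0.34) were lost without some arrays, 5 for the F test (up to 0.0841) and 8 for the call (up to 0.330), BALB/cJ replicates 2 and 3 among them in each case. Ccl11 (eotaxin), which draws eosinophils, was 7.07, 6.65 and 6.71 in A/J mice, beside 5.89 to 6.84 and a median of 6.30; its A/J call (0.52, adjusted p = 0.0446) was lost without any 1 of 15 arrays (up to 0.327). Ccl1, Ccl2, Ccl4, Ccl7, Ccl8, Ccl12, Ccl24 and Ccl26 stayed within the Y-linked range in every strain. The MRL/MpJ calls of Ccl1 (lost without MRL/MpJ replicate 1 or 2, up to 0.183) and Ccl26 (lost without 4 arrays, up to 0.354), and that of Ccl26 in C57BL/6J (lost without any of its arrays, up to 0.344), are differences within that range. Quantile normalization also lost each of these calls, and median centring those of Ccl26. Strain means of the rest ran from 4.81 to 5.21 for Ccl2, 4.86 to 5.23 for Ccl7, 3.55 to 4.02 for Ccl8 and 4.57 to 5.13 for Ccl24.

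The 3 homeostatic CC chemokines analysed here were Ccl20, which draws cells with Ccr6, Ccl25, the ligand of Ccr9, and Ccl27a, a skin chemokine that binds Ccr10. Their strain means ran from 4.86 to 5.31, from 5.59 to 5.82 and from 6.41 to 7.06. Ccl20 was called lower in KK/HlJ (4.67, 4.98 and 4.91, difference -0.35, adjusted p = 0.0253), and the call was lost without KK/HlJ replicate 1 or 3 (up to 0.244). The KK/HlJ mean of Ccl20, 4.86, was among 7 strain means in the Y-linked range. Ccl19, Ccl21 genes, Ccl27b and Ccl28 were not analysed here.

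Of the CC receptors, Ccr3, the eotaxin receptor of eosinophils, spread most. It was 5.70, 5.91 and 5.22 in 129S1/SvlmJ mice and 4.05, 4.62 and 4.54 in A/J mice, with 4.41 to 5.82 and a median of 4.86 in the other 21 mice. 129S1/SvlmJ exceeded A/J by 1.21 ± 0.22 (SE, adjusted p = 0.00117), with A/J and 6 other strain means in the Y-linked range, while 129S1/SvlmJ and DBA/2J, next to each other, differed by 0.32, which did not pass (adjusted p = 0.428). The 129S1/SvlmJ call was lost without its replicate 2 (0.59, adjusted p = 0.0974) and the A/J call without any of its arrays (up to 0.301). Of 7 eosinophil markers none was called in 129S1/SvlmJ, while in A/J 1 was higher, Siglecf (0.36), and 0 were lower. In A/J the alveolar macrophage markers Marco (1.00) and Krt79 (1.21) were higher too, and Chil3 (-0.52) was lower. The part of eosinophils or macrophages in Siglecf or Ccr3 was not tested. Epx, the eosinophil peroxidase, had strain means of 4.17 to 4.45, within the Y-linked range. Ccr2, which brings monocytes out of the marrow, was 7.85, 7.60 and 8.07 in DBA/2J mice, beside 7.17 to 7.87 and a median of 7.42 in the others; DBA/2J stood 0.38 ± 0.08 (SE, adjusted p = 0.00403) above, and the call was lost without DBA/2J replicate 3 (0.26, adjusted p = 0.127). Ccr1, a receptor for Ccl3 and Ccl5, passed the F test (adjusted p = 0.0338) with DBA/2J mice at 5.26, 4.84 and 5.63 and BALB/cJ mice at 4.34, 4.40 and 4.91; that was lost without any 1 of 5 arrays, DBA/2J replicate 1 or 3, 129S1/SvlmJ replicate 1 or BALB/cJ replicate 1 or 2 (up to 0.0713). Ccr7, which takes dendritic cells to lymph nodes, had strain means of 6.37 to 6.80 without a call. Ccr1, Ccr4, Ccr6, Ccr8, Ccr9 and Ccr1l1 stayed within the Y-linked range in every strain, and Ccr10 was above it in 129S1/SvlmJ alone, at 5.32.

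Of 13 further chemokine system genes that the symbol rule leaves out, 9 passed the F test, or 69.2%. Of all named genes 28.9% passed, and 36.8% of those above the Y-linked range in at least 1 strain. The platelet chemokines Ppbp and Pf4 spread widest, with strain means of 6.94 in 129S1/SvlmJ to 10.89 in KK/HlJ and 5.14 in C57L/J to 6.92 in KK/HlJ. Of 6 other platelet markers 5 were lower in 129S1/SvlmJ, 4 were lower in C57L/J and 5 were higher in KK/HlJ, Tubb1 among them in each; their part was not tested. The decoy receptor Ackr4 ran from 6.80 to 7.94, and Xcr1, of cross-presenting dendritic cells, from 6.10 to 7.17, highest in C57L/J. Of 43 genes that signal below chemokine receptors, 22 passed, or 51.2%, beside the same shares. Rgs18, a regulator of G protein signalling found in platelets, had the largest range, 6.16 in 129S1/SvlmJ to 8.15 in C3H/HeJ (8.09 without replicate 2), and Plcb2, a phospholipase, was among the others, at 7.32 in C3H/HeJ (7.29 without replicate 2) and 6.49 in BALB/cJ.

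The design also sets strains of increased against strains of decreased adenoma severity and frequency. The unit was the strain mean, since a class belongs to a strain and not to a mouse. No member was called by limma in any of the 3 comparisons: 0 of 47 for severity (7 strains increased, 2 decreased; 0.00988% of all genes were called), 0 for frequency (3 and 6; 0% of genes) and 0 for both together (3 and 2; 0.00494%). At an unadjusted p under 0.05 there were 5 members in each comparison, 10.6% beside 7.04%, 7.7% and 8.62% of all genes. Strain means of the classes did not overlap for 4 members in severity (6.69% of genes; 8.51% of members), 2 in frequency (3.92%; 4.26%) and 13 in both (27%; 27.7%). For severity, Ccl27a averaged 6.57 ± 0.17 in increased strains and 7.003 ± 0.09 in decreased strains (SD, n = 7 and 2; difference -0.43 ± 0.12, SE, adjusted p = 0.578). Cxcl15 averaged 12.46 ± 0.08 in increased strains and 12.21 ± 0.15 in decreased strains (difference 0.25 ± 0.08, SE, adjusted p = 0.615). Cxcr1 averaged 6.28 ± 0.69 in increased strains and 7.62 ± 0.13 in decreased strains (-1.34 ± 0.43, adjusted p = 0.622). The increased class holds C3H/HeJ, whose Cxcr1 mean of 7.71 (7.62 without replicate 2) lay with the decreased strains. For frequency the smallest p were those of Ccr10 (5.03 ± 0.06 in increased and 5.19 ± 0.07 in decreased strains), Cxcl1 (5.86 ± 0.15 in increased and 6.05 ± 0.09 in decreased strains) and Ccr2 (7.64 ± 0.23 in increased and 7.43 ± 0.08 in decreased strains), each at an adjusted p of 0.647. For both together, Ccl27a (-0.53), Cxcl15 (0.29) and Cxcr1 (-1.62) had an adjusted p of 0.510.

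When all 27 arrays were fitted with the strain as a random block, Cxcr1 was called in severity (adjusted p = 0.0252) and in both together (0.0106); with arrays taken as independent, Cxcl15 was called as well (0.0174 and 0.0102). Independent arrays count the mice of 1 strain as further samples of its class. The random block used a correlation shared by all genes. For Cxcr1 in severity its SE was 0.28, near the 0.27 of independent arrays, against 0.43 over strain means. Neither fit is therefore read as a result over strains.

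**Figure D5:**
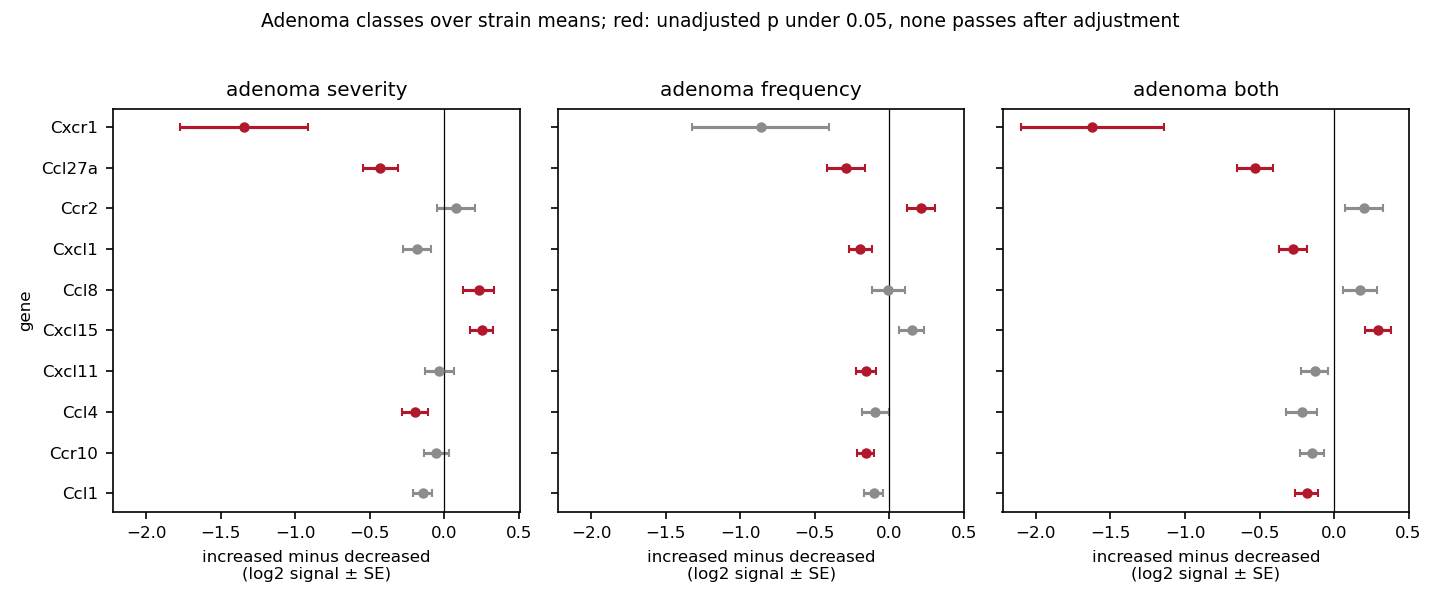
Mean of increased minus mean of decreased strains (horizontal axis, log2 signal ± SE) for the 10 members with an unadjusted p under 0.05 in at least 1 of 3 adenoma comparisons; red marks such a p. Cxcr1 stands at -1.34 in severity and -1.62 in both, with wide errors, and no member passed after adjustment.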

How the data were processed

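Right lung RNA of 27 female mice was hybridised to Affymetrix Mouse Gene 1.0 ST arrays. Per the labels' protocols, total RNA was isolated, checked for integrity, amplified with T7 polymerase and biotin-labelled. The affy package was used, per the submitters' processing notes, and neither its version nor the normalization is given in the labels. The deposited values are log2 signal of 21225 probe sets, of which 20239 have 1 gene symbol and 986 none and were left out. Array medians ran from 6.24 to 6.37, so values were used as deposited. Correlations of arrays were 0.984 to 0.997 within a strain and 0.976 to 0.993 between strains; 3 mice per strain limit the precision.

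R 4.3.3 and limma 3.58.1 fitted 1 mean per strain (lmFit, eBayes). Tests were the moderated F test, 36 strain pairs (called where the adjusted p was under 0.05 and the groups were at least 1 apart on the log2 scale), each strain minus the mean of the other 8, and adenoma classes over strain means. Benjamini-Hochberg adjustment ran over all named probe sets within each test. The fits were tested on simulated data. Symbols and gene order came from the platform table and RefSeq (GRCm38.p6). The match of probes to each strain's own sequence was not examined. Values of every mouse are given for members with large strain ranges that pass the F test, all strain calls are named, and for classes the 3 smallest p. Members and lists were chosen with earlier results of these data known. Serial numbers in the array names, per the labels, ran strain by strain except for MRL/MpJ replicate 3, so their order and strain cannot be told apart. Marker counts without the lung that stands apart, and without genes described in the text, were added after seeing the data. Deviations of same-numbered mice from their strain means had correlations of -0.27 to 0.28 (median -0.00013, 24 of 108 over 0.1). No pairing by number was therefore assumed, but these correlations cannot exclude a link between some same-numbered mice. Alternatives were other scalings, filters, priors, weights and minimum differences, the replicate number as a block, and leaving out arrays or strains.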

Additional observations from a re-analysis of the deposited data

Results flagged for a closer look

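Some strains stood apart from the other strains of their adenoma class by more than Dixon's critical value for the gap over the range of strain means. This held in 13 of 94 groups of 6 or 7 strains, or 13.8%. The critical value is set to flag about 1 in 20 groups of normally distributed values. The share over all genes was not computed, and the 2 classes share strains. No excess over chance or over other genes is therefore read from this count. Among the 7 strains of increased severity, C57BL/6J was low for Cxcl1 (5.69; nearest 5.89) and Cxcl2 (3.42; 3.65), C57L/J was high for Cxcl9 (5.76; 5.15) and C3H/HeJ high for Cxcr1 (7.71; 6.47). Among the 6 strains of decreased frequency, MRL/MpJ was high for Ccl1 (4.88; 4.68) and Cxcl1 (6.22; 6.04), C57L/J high for Ccl22 (5.69; 4.92) and Cxcl9 (5.76; 5.15), C3H/HeJ high for Cxcl11 (4.20; 3.99) and BALB/cJ high for Cxcr4 (10.37; 9.77). In the same 6, KK/HlJ was low for Ccl20 (4.86; 5.15) and Ccl9 (6.41; 6.82), and 129S1/SvlmJ was low for Ccl5 (7.59; 8.37). Cxcl2, Cxcl11 and Ccl1 lay within the range of the Y-linked genes. Without C3H/HeJ replicate 2, the lung with high skeletal muscle genes, Cxcl11 in C3H/HeJ was 4.05 and no longer stood apart, nor did Ccl20, Ccl9 and Cxcr4, while Ccr3 in 129S1/SvlmJ did (5.61; 5.001), so that 10 groups were above the critical value. The cause of these differences was not tested.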

How the results depend on the processing

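Under quantile normalization, median centring, dim probe sets left out, array weights, an intensity trend with robust prior, and unnamed probe sets kept, members passing the F test numbered 22 to 26 of 47 (22 as reported), or 20 of the 28 members left without dim probe sets, pair calls 44 to 49 (45) and strain calls 55 to 70 (56). Leaving out 1 array gave 19 to 24, 42 to 51 and 49 to 61, and 0 to 0 class calls. With no minimum difference the pair calls were 228, or 13.5% of tests beside 7.31% over all genes, and with a minimum of 0.5 they were 172 (10.2% beside 3.14%). The replicate block gave 21, 45 and 56 calls, with the F test of Cxcl10 lost and 54 of 56 strain calls kept. The reported fits assumed no pairing of mice by number. In severity and in both together, the strain as a random block gave 1 class call and independent arrays 2. Independent arrays count each mouse as a sample of its class, and the block gave Cxcr1 a nearly equal SE. Leaving out any strain gave 0 class calls. No result changed direction. Precision is limited by 3 mice per strain, and for 19 members by signal within the range of the Y-linked genes.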
